A study of Homo sapiens with 8 samples.

Results

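HCT-8/FU cells, a 5-FU-resistant line, were compared with HCT-8 cells, the sensitive parental colon cancer line, that had been kept in medium conditioned by HCT-8 cells themselves (CM of HCT-8). The comparison used 4 of the 8 mRNA libraries of the series: the 2 HCT-8/FU libraries and the 2 CM of HCT-8 libraries, chosen by their titles. HCT-8/FU cells were in unconditioned medium, as were the cells of a second pair of libraries, HCT-8, which served as the other parental control. The remaining pair, HCT-8 cells in medium from HCT-8/FU cells, entered only the estimate of the spread. The labels name Ham's F12 medium with serum and antibiotics for every group, whereas the study's methods name RPMI for HCT-8, and which was used is unknown here. No group's label gave a 5-FU treatment at harvest. HCT-8/FU was 1 purchased line, and line and conditioning of the medium changed together in this comparison and cannot be told apart. The labels do not say whether the replicates were separate cultures, so p-values measure only the spread between these libraries. The question was which features of the resistant line remain when the parental control has been in its own conditioned medium.

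5-FU is a pyrimidine analogue. Its metabolites inhibit thymidylate synthase (TYMS), which deprives replicating DNA of thymidine, and are also built into RNA and DNA. Conditioned medium carries what cells secrete and lacks what they have used up, so a parental culture in it can shift its growth and stress programmes without any resistance. Among such programmes, the integrated stress response raises ATF4, DDIT3 and their targets when translation initiation is restrained, and the unfolded protein response raises chaperones of the endoplasmic reticulum (ER).

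Counts on genes were 28444413 and 5804124 in HCT-8/FU replicates 1 and 2. CM of HCT-8 had 9350753 and 26709802, and HCT-8 had 8055150 and 34881349. The 3 shallower of these libraries also held the highest shares of records that were not aligned, from 19.96% to 29.6%, against 3.72% to 4.43% in the other 3. Colon epithelial markers were high and similar: EPCAM, KRT8, KRT18, KRT19, CDH1, VIL1, CDX2 and CDH17 summed to between 9507 and 9916 CPM (library-scaled counts, by TMM) in HCT-8/FU and between 10820 and 11770 in CM of HCT-8, and none of the 8 was called different. The fibroblast list summed to at most 22.3 CPM in any of the 4 libraries, with COL1A2, COL3A1 and PDGFRA at 0 counts in all of them. The leukocyte list reached at most 2.599 CPM, with PTPRC and CD3E at 0, and the endothelial list at most 2.45 CPM, with CDH5 and KDR at 0.

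HCT-8/FU cells held more mRNA of many mitotic genes and less of many stress-response and ER chaperone genes than HCT-8 cells in their own conditioned medium. Of 20305 genes tested, 4103 (20.2%) were called differentially expressed by edgeR's quasi-likelihood test, with a Benjamini-Hochberg adjusted p up to 0.05 and a log2 fold change of 0.58 or more in size. Levels in HCT-8/FU were higher for 2694 of these (13.3% of genes tested) and lower for 1409 (6.94%). With CM of HCT-8 replicate 2 as the scaling reference the split was 3064 higher and 776 lower, which is 79.8% higher against 65.7%. With DESeq2 or edgeR fitted on the compared groups alone, the splits were 2428 higher and 619 lower (79.7%) and 2826 higher and 602 lower (82.4%), and with the correction for GC content described next 938 and 867 (52.0%). The 2 HCT-8/FU libraries lay wholly above or below the 2 CM of HCT-8 libraries in 64.5% of all genes tested, so groups that do not overlap are common here.

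The fold changes followed the GC content of the genes. Median log2 fold changes were 0.75 in the fifth of genes with the lowest exonic GC content (26.0% to 41.5%), where 1911 of 3972 genes were higher and 19 lower, and -0.42 in the fifth with the highest (58.0% to 85.5%), where 29 were higher and 708 lower. Across 19857 genes, which are not independent replicates, the Spearman correlation of log2 fold change with GC content was -0.593. Within libraries, the correlation of a gene's deviation from its mean over all libraries with GC content was -0.481 and -0.448 in the HCT-8/FU libraries. CM of HCT-8 had 0.371 and 0.527, and HCT-8 had 0.0509 and 0.211. Both replicates of each group lay on the same side of 0, although they differed in depth and in the share not aligned. After each library had been corrected for GC content and exonic length, 1805 genes were called (9.09%), 938 higher (4.72%) and 867 lower (4.37%). Of the higher calls 880 were made with and without the correction, and of the lower calls 258. Corrected log2 fold changes against CM of HCT-8 are therefore given beside many of the uncorrected ones. A correction of this kind also removes any true change that follows GC content, and which of these was at work was not tested.

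**Figure D1:**
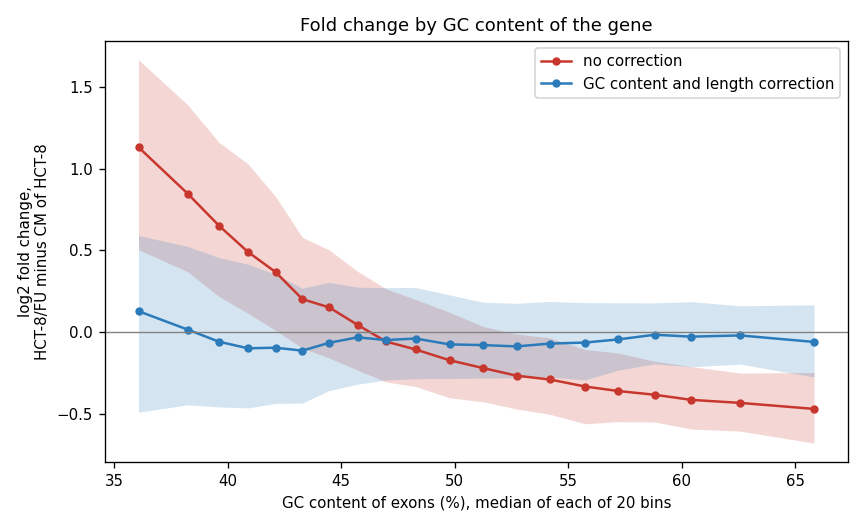
Median log2 fold change of HCT-8/FU relative to CM of HCT-8 (y axis) in 20 bins of genes by exonic GC content (x axis, percent), with shaded bands from the 25th to the 75th percentile of the genes of a bin. Without correction the medians fell from 1.13 in the bin lowest in GC to -0.47 in the highest, and with correction they lay between -0.11 and 0.13.

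Genes called in the same direction against both parental controls numbered 1887 higher (9.29% of genes tested) and 715 lower (3.52%). The 2 contrasts share the HCT-8/FU libraries, so these counts are not a test of agreement. The higher genes made up 70.5% of the 2677 higher against HCT-8 and 70.0% of the 2694 higher against CM of HCT-8. For lower genes the shares were 43.4% of 1648 and 50.7% of 1409. With the correction, 505 higher and 520 lower genes were called against both. The difference between both HCT-8/FU contrasts is the contrast of CM of HCT-8 with HCT-8, and it was tested in the same fit: 1655 genes (8.15%) differed, 783 higher (3.86%) and 872 lower (4.29%) in CM of HCT-8.

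Mitotic genes had the highest median change of the lists examined. Of 36 members, 24 were higher in HCT-8/FU than in CM of HCT-8 and none lower, beside 13.3% higher among all genes tested, with a list median log2 fold change of 1.39 against -0.09 for all genes. The same 24 were higher against HCT-8, beside 9.29% of all genes higher against both controls. Median exonic GC content was 40.4% in the list and 49.0% in all genes tested. In the fifth of genes lowest in GC content, 1911 of 3972 were higher. With the correction 19 were higher, beside 4.72% of all genes, and the median was 0.66. 18 were called with and without it.

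MKI67, the proliferation antigen Ki-67 that coats mitotic chromosomes, stood at 356 and 398 CPM in HCT-8/FU, 119 and 78.8 CPM in CM of HCT-8, and 86.0 and 84.2 CPM in HCT-8. Both HCT-8/FU libraries were far above all 4 parental ones, and the parental groups overlapped each other. The log2 fold change against CM of HCT-8 was 1.95 (SE 0.135, edgeR adjusted p = 4.87e-08). It was 1.85 with the correction.

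CENPF, a kinetochore protein of late G2 and mitosis, stood at 299 and 240 CPM in HCT-8/FU against 64.3 and 42.1 CPM in CM of HCT-8 and 57.9 and 57.1 CPM in HCT-8. Its log2 fold change against CM of HCT-8 was 2.39 (SE 0.148, edgeR adjusted p = 2.04e-08), and 1.60 with the correction. Here too the resistant libraries lay above all parental ones.

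ASPM, which organises spindle poles, stood at 122.5 and 95.1 CPM in HCT-8/FU against 24.3 and 21.0 CPM in CM of HCT-8 (log2 fold change 2.31, corrected 1.21). TOP2A, the topoisomerase that untangles sister chromatids, stood at 402 and 393 CPM against 132 and 85.5 CPM (1.90, corrected 1.13). The kinesins KIF20B (2.19, corrected 1.06) and KIF11 (1.82, corrected 1.28) and the condensin subunit SMC2 (2.11, corrected 1.27) were higher as well. CDK1, the kinase that drives entry into mitosis, was called without the correction (1.12) but not with it (0.14).

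The 12 mitotic genes that were not called against CM of HCT-8 included several regulators of mitotic entry and exit. PLK1, a mitotic kinase, stood at 51.4 and 62.7 CPM in HCT-8/FU, against 60.4 and 61.3 CPM in CM of HCT-8, with overlapping groups and a log2 fold change of -0.12. CCNB1, cyclin B1, had a log2 fold change of 0.15, AURKA 0.07 and CDC20, an activator of the anaphase-promoting complex, -0.19. Exonic GC content ranged from 34.3% to 48.2% in the 24 genes called and from 43.5% to 57.6% in the 12 that were not. AURKB, another mitotic kinase, was higher than in HCT-8 by 0.63 but had a value of -0.45 against CM of HCT-8, as it was higher in CM of HCT-8 than in HCT-8 by 1.08. Bulk counts do not tell more cells in mitosis from more mRNA per cell.

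Genes of the integrated stress response were lower. Of 28 members tested, 17 were lower in HCT-8/FU than in CM of HCT-8 and 1 higher, beside 6.94% lower among all genes tested, with a median log2 fold change of -0.74. With the correction 14 were lower, beside 4.37% of all genes, and none higher, and 11 were lower with and without it. The corrected count was 7 when CM of HCT-8 replicate 1 was left out and 19 when replicate 2 of that group was. Of the 17, 16 were also lower against HCT-8, beside 3.52% of all genes lower against both controls.

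DDIT3, the CHOP transcription factor that promotes death under lasting ER stress (chr12:57516588-57521737, GRCh38), stood at 46.8 and 36.1 CPM in HCT-8/FU, 101.3 and 100.5 CPM in CM of HCT-8, and 212.1 and 205.5 CPM in HCT-8. The 3 groups were fully separated, with CM of HCT-8 between the others. DDIT3 was lower than in CM of HCT-8 by a log2 fold change of -1.24 (SE 0.102, edgeR adjusted p = 2.28e-07), corrected -1.16. About 31.6% of its exonic sequence overlaps a gene on the other strand, and the strand setting of the counting is unknown here.

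ATF3, a stress-induced transcription factor, showed the same order more steeply, at 7.78 and 6.52 CPM in HCT-8/FU, 17.7 and 16.6 CPM in CM of HCT-8 and 67.8 and 65.2 CPM in HCT-8. Against CM of HCT-8 its log2 fold change was -1.20 (SE 0.147, edgeR adjusted p = 1.32e-05), against -3.16 when the control was HCT-8. The controls themselves differed by -1.96.

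TRIB3, a pseudokinase induced by ATF4 and DDIT3, stood at 212 and 187.9 CPM in HCT-8/FU, 414.5 and 414.1 CPM in CM of HCT-8 and 828.5 and 886.7 CPM in HCT-8. It was lower than in CM of HCT-8 by a log2 fold change of -1.04 (corrected -0.61). PPP1R15A, the phosphatase subunit that ends the response (-1.01, corrected -0.64), DDIT4, an inhibitor of mTORC1 (-0.98, corrected -0.58), GDF15, a secreted stress cytokine (-0.96, corrected -0.53, not called) and SLC3A2, the partner chain of amino acid transporters (-0.96, corrected -0.79), followed it. ATF4 itself was alike in both parental groups, at 1226 and 1006 CPM in CM of HCT-8 and 1130 and 1104 CPM in HCT-8, and stood at 623 and 594 CPM in HCT-8/FU. ASNS, asparagine synthetase, was lower than in HCT-8 by a log2 fold change of -1.26 but reached -0.51 against CM of HCT-8, short of the fold threshold. With the correction ASNS was called (-0.78), and 49.3% of its exonic sequence overlaps another gene on the same strand. The single member higher was SLC7A11, described below.

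ER chaperones were lower as well. Of 21 members, 11 were lower in HCT-8/FU than in CM of HCT-8 and 1 higher, beside 6.94% and 13.3% of all genes tested. The list median was -0.59. The same 11 were lower against HCT-8, beside 3.52% of all genes lower against both controls. With the correction 10 were lower, beside 4.37% of all genes, 7 of them also without it. The corrected count was 7 when CM of HCT-8 replicate 1 was left out and 13 when its replicate 2 was. HSPA5, the central ER chaperone BiP, stood at 3233 and 2957 CPM in HCT-8/FU, 5468 and 5351 CPM in CM of HCT-8 and 12050 and 11480 CPM in HCT-8. The groups were ordered as for DDIT3 and did not overlap. The log2 fold change against CM of HCT-8 was -0.81 (SE 0.0602, edgeR adjusted p = 9.53e-08), and -1.04 with the correction.

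HYOU1 is a chaperone and a nucleotide exchange factor of BiP. It stood at 1382 and 1288 CPM in HCT-8/FU, against 3024 and 2622 CPM in CM of HCT-8 (-1.08, corrected -0.84). HERPUD1, part of ER-associated degradation (-0.92, corrected -1.28), PDIA4, a disulfide isomerase (-0.80, corrected -0.53, not called), and the lectin chaperone CALR (-0.85, corrected -0.52, not called) were lower too. CRELD2, a secreted ER stress marker, had the lowest value of the list (-1.24, corrected -0.89). DNAJC3, an inhibitor of the kinases that start the integrated stress response, was the single member higher (0.65), and its corrected value was 0.01.

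**Figure D2:**
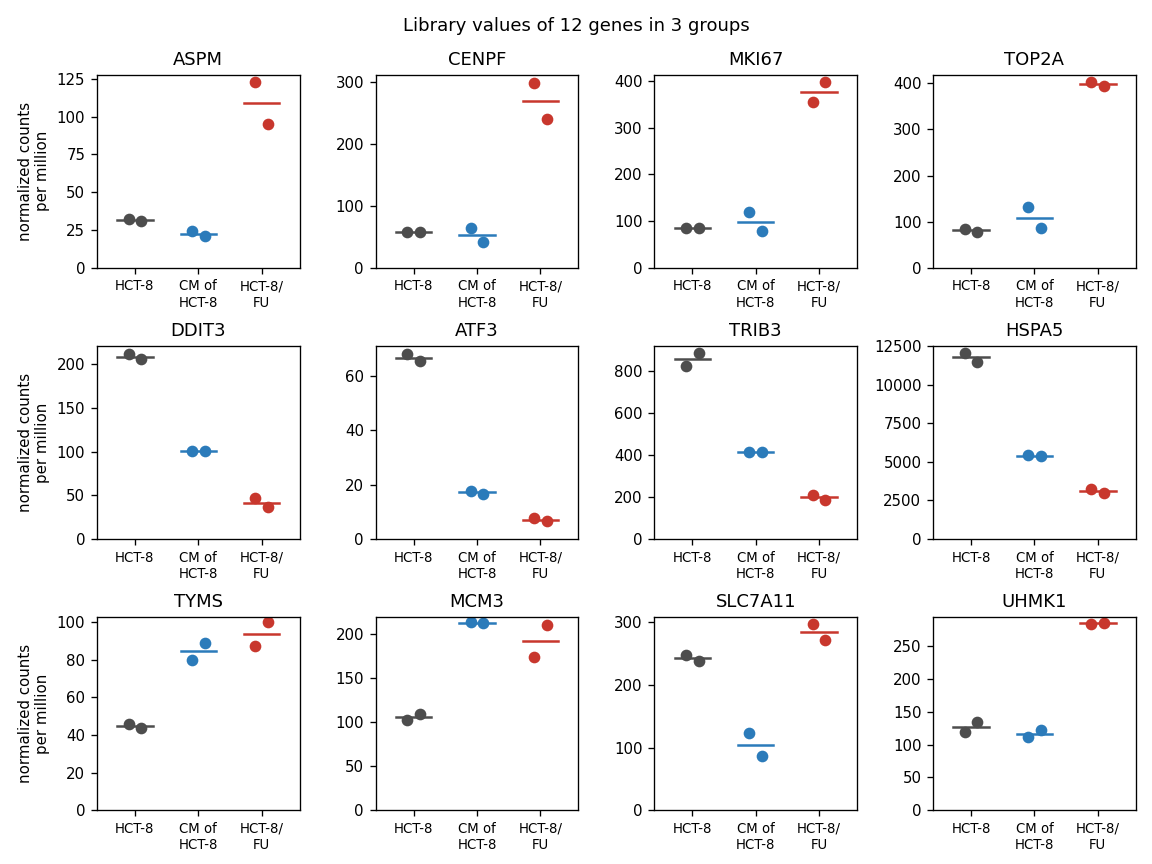
TMM-scaled CPM (y axis, linear, from 0) of 12 genes in the 2 libraries of HCT-8, CM of HCT-8 and HCT-8/FU, with points for libraries and a line for the mean of each pair. In the top row both HCT-8/FU points lie above all parental points, in the middle row the groups descend from HCT-8 over CM of HCT-8 to HCT-8/FU, and in the bottom row TYMS and MCM3 are high in both CM of HCT-8 and HCT-8/FU while SLC7A11 is low in CM of HCT-8 alone.

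Promoters of these lists carry known regulatory letters, searched on both strands in RefSeq windows from 250 bases before to 50 after a gene's start (GRCh38.p14). TTTGAA, the cell cycle homology region bound by repressors of G2 and mitosis genes, was in the windows of 25 of 33 mitotic genes, against 13.6% of 12326 tested genes with a window. The E2F letters TTTCCCGC or TTTGGCGC were in 19 of 38 DNA replication genes, against 4.24%, and in 1 of 33 mitotic genes. The ER stress response element, which is CCAAT and, 9 bases on, CCACG, was in 8 of 20 ER chaperone genes, against 0.130%. A match is a description of these letters and not evidence that a factor was bound. The windows below are those of the 2 called members with the smallest adjusted p among those with a match, in HCT-8/FU relative to CM of HCT-8 for mitosis and ER chaperones and in CM of HCT-8 against HCT-8 for DNA replication, with the matched letters in capitals.
ASPM, mitosis, chr1:197146620-197146919, minus strand: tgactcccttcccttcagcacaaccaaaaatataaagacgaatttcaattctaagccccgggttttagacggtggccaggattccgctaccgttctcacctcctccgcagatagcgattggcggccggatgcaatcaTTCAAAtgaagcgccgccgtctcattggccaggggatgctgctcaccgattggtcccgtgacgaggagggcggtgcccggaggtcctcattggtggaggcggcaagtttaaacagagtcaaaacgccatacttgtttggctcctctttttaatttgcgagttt
KIF20B, mitosis, chr10:89701340-89701639, plus strand: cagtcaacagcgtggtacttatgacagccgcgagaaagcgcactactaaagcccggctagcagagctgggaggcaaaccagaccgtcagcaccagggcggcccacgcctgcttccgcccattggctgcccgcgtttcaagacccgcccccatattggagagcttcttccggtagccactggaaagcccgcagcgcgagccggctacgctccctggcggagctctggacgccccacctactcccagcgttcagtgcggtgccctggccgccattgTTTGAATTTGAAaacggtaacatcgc
MCM3, DNA replication, chr6:52284693-52284992, minus strand: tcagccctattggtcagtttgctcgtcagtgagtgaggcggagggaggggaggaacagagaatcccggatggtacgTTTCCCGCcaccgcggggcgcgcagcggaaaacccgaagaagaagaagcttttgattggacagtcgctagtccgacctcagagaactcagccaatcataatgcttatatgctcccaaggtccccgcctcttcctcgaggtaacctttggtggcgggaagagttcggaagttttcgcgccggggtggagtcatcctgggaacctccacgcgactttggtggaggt
PCNA, DNA replication, chr20:5126573-5126872, minus strand: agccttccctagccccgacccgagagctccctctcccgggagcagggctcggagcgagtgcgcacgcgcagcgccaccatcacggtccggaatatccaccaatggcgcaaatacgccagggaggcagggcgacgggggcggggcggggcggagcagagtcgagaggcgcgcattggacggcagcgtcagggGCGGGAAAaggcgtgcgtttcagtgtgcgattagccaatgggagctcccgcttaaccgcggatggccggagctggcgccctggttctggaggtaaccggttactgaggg
HSPA5, ER chaperones, chr9:125241294-125241593, minus strand: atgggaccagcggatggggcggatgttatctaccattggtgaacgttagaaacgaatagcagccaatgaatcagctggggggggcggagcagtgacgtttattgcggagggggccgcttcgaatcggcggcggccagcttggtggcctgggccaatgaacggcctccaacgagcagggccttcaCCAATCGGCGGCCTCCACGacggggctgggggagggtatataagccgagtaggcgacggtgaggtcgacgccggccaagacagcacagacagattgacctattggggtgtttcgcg
CALR, ER chaperones, chr19:12938359-12938658, plus strand: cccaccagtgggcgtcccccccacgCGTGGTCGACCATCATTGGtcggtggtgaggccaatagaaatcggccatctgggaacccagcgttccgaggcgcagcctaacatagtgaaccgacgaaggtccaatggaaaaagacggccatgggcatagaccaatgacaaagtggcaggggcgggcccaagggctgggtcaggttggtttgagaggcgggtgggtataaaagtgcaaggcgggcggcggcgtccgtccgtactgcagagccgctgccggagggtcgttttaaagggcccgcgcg

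Fewer DNA replication genes were called when the control was CM of HCT-8. Of 42 members, 24 were higher in HCT-8/FU than in HCT-8, beside 13.2% of all genes tested, but 9 were higher and 2 lower against CM of HCT-8, beside 13.3% and 6.94%, with medians of 0.67 and 0.15. With the correction 4 were higher against CM of HCT-8, beside 4.72%, and none lower. CM of HCT-8 itself was higher than HCT-8 in 17 of the 42, beside 3.86% of all genes, and lower in none.

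MCM3, a subunit of the replicative helicase, stood at 174 and 211 CPM in HCT-8/FU, 214 and 212 CPM in CM of HCT-8 and 103 and 109 CPM in HCT-8. HCT-8 was far below both other groups. HCT-8/FU had a log2 fold change of 0.85 against HCT-8 and -0.16 against CM of HCT-8 (edgeR adjusted p = 0.177), and the difference between these contrasts was 1.00 (edgeR adjusted p = 3.8e-06). MCM2 (0.71 against HCT-8, -0.13 against CM of HCT-8), MCM6 (1.19 and 0.24) and the polymerase clamp PCNA (1.17 and 0.25) had the same pattern. CDT1, which loads the helicase, and RFC2, a clamp loader subunit, were the 2 lower against CM of HCT-8 (-0.59 and -0.62), and neither was called with the correction.

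All 9 replication genes higher against CM of HCT-8 were also higher against HCT-8, beside 9.29% of all genes higher against both. CLSPN, claspin, which links stalled forks to the checkpoint kinase CHK1, stood at 39.5 and 41.5 CPM in HCT-8/FU, 19.3 and 18.1 CPM in CM of HCT-8 and 9.74 and 11.9 CPM in HCT-8, a rise of 1.12 against CM of HCT-8 (corrected 0.78). FAM111B, a protease linked to replication, rose by 2.08 (corrected 1.24), RFC1, the large clamp loader subunit, by 1.34 (corrected 0.84) and POLA1, the catalytic subunit of the primase-coupled polymerase, by 1.37 (corrected 0.52, not called).

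Genes of 5-FU and pyrimidine metabolism followed the replication genes. Of 34 listed, 30 were tested, and against HCT-8 10 were higher (beside 13.2% of all genes) and 3 lower (beside 8.12%). Against CM of HCT-8 the counts were 2 higher and 4 lower, beside 13.3% and 6.94% of all genes tested. With the correction 1 was higher and 2 lower, beside 4.72% and 4.37%, and no gene was called lower both with and without it. TYMS, the target of 5-FU, stood at 87.2 and 99.8 CPM in HCT-8/FU, 79.9 and 89.1 CPM in CM of HCT-8 and 45.8 and 43.7 CPM in HCT-8. HCT-8/FU overlapped CM of HCT-8, and both were above HCT-8. Its log2 fold change was 1.06 against HCT-8 and 0.13 (SE 0.0917, edgeR adjusted p = 0.309) against CM of HCT-8, and the controls differed by 0.93 (edgeR adjusted p = 1.28e-05). About 47.9% of the exonic sequence of TYMS overlaps a gene on the other strand.

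RRM2, the small subunit of ribonucleotide reductase, went from 1.62 against HCT-8 to 0.32 against CM of HCT-8, and DUT, the dUTPase that keeps uracil out of DNA, from 0.76 to 0.01. TK1, thymidine kinase (0.70 and -0.37), was likewise called only with HCT-8 as control, and for each of these 3 the difference between the controls passed edgeR's test. UMPS, which makes the RNA-directed 5-FU nucleotide, had 0.09 against CM of HCT-8, and the thymidine phosphorylase TYMP had 0.07 (SE 0.492) at 0.576 to 1.77 CPM. DPYD, which degrades 5-FU, was at 0.0377 to 0.167 CPM and was not tested.

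The members that passed against CM of HCT-8 were others. RRM2B, the p53-inducible ribonucleotide reductase subunit, stood at 51.7 and 57.2 CPM in HCT-8/FU, 21.3 and 16.1 CPM in CM of HCT-8 and 23.2 and 22.3 CPM in HCT-8. It was above both parental groups, by 1.57 against CM of HCT-8 (SE 0.127, edgeR adjusted p = 1.94e-07, corrected 0.74). PPAT, the first enzyme of purine synthesis, was the other higher gene (0.94, corrected 0.07). SHMT2, the mitochondrial serine hydroxymethyltransferase (-0.67), FPGS, which adds glutamates to folates (-0.58), the nucleoside transporter SLC29A2 (-0.60) and the folate carrier SLC19A1 (-0.60) were lower, and none of these 4 was called with the correction.

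**Figure D3:**
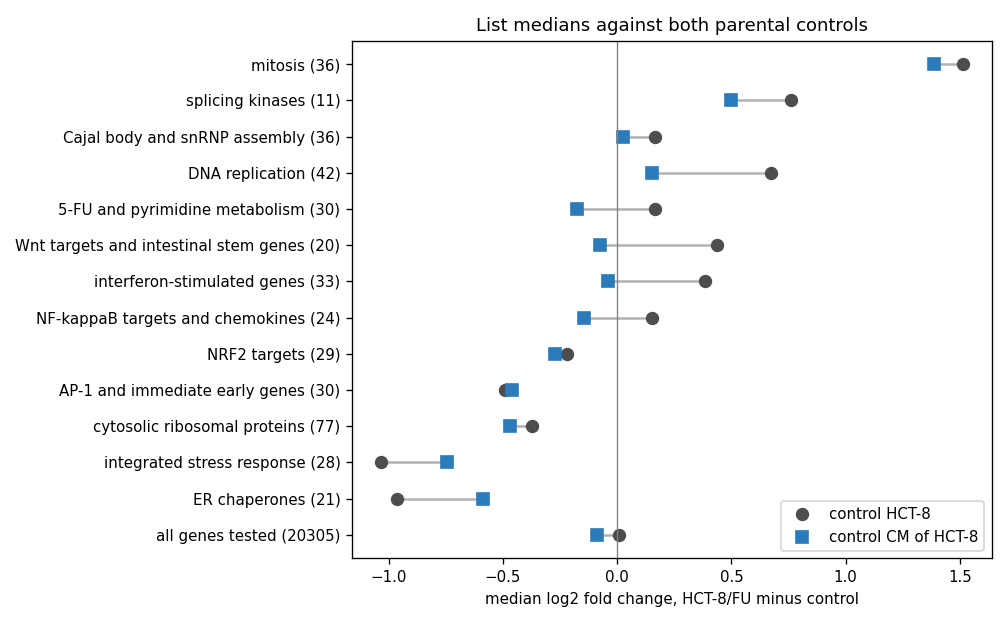
Median log2 fold change (x axis) of the genes of 13 lists and of all genes tested, with the number tested in brackets, for HCT-8/FU minus HCT-8 (grey circles) and HCT-8/FU minus CM of HCT-8 (blue squares). Mitosis was at 1.51 and 1.39, while DNA replication moved from 0.67 to 0.15 and the integrated stress response from -1.03 to -0.74.

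Wnt targets and intestinal stem genes had fewer calls against CM of HCT-8 too. Of 20 tested, 8 were higher against HCT-8 and 2 against CM of HCT-8, beside 13.2% and 13.3% of all genes tested. Against both controls 1 was higher, beside 9.29% of all genes. With the correction 1 was higher against CM of HCT-8, beside 4.72%. CM of HCT-8 was higher than HCT-8 in 9, beside 3.86%. With the correction it was higher in 4, beside 519 of all 19857 genes. AXIN2, a feedback target of Wnt signalling, stood at 239 and 250 CPM in HCT-8/FU, 267 and 227 CPM in CM of HCT-8 and 134 and 137 CPM in HCT-8. HCT-8/FU lay within the range of CM of HCT-8 (-0.01), and both were above HCT-8. About 25.3% of its exonic sequence overlaps another gene on the same strand. ASCL2, a stem cell transcription factor, went from 0.86 against HCT-8 to -0.37. LGR5, the R-spondin receptor that marks intestinal stem cells, kept a rise, at 26.7 and 27.9 CPM in HCT-8/FU, 15.8 and 14.2 CPM in CM of HCT-8 and 8.03 and 8.07 CPM in HCT-8 (0.87 against CM of HCT-8, corrected 0.58, just under the fold threshold). LEF1, a partner of beta-catenin, was the second higher gene (0.62, corrected 0.75), with an adjusted p of 0.0338 by edgeR's test.

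Without the correction, other genes were called only when the control was CM of HCT-8. Of the 2694 genes higher against it, 177 had an adjusted p above 0.05 against HCT-8 and at most 0.05 between the controls. Of the 1409 lower genes, 142 did. SLC7A11, the cystine transporter that feeds glutathione synthesis (chr4:138164097-138242349, GRCh38), stood at 297 and 272 CPM in HCT-8/FU, 123 and 86.3 CPM in CM of HCT-8 and 247 and 238 CPM in HCT-8. CM of HCT-8 was the low group. The transporter's log2 fold change was 1.47 (SE 0.121, edgeR adjusted p = 2.37e-07) against CM of HCT-8 and 0.23 against HCT-8. The corrected values were 0.35 against CM of HCT-8 and -0.52 against HCT-8, and neither was called.

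ARHGAP29, a GTPase-activating protein (1.48, corrected 0.34), and FAM135A (1.48, corrected 0.44) had the same form without the correction. So did SWT1, a nuclear endoribonuclease (1.68, corrected 1.04), and RDX, radixin, which ties actin to the membrane (1.45, corrected 0.74). With the correction ARHGAP29 was called lower against HCT-8 (-0.76) and was not called against CM of HCT-8. SWT1 and RDX were called against CM of HCT-8 with the correction as well. The lower genes of this kind were UBALD2 (-1.16, corrected -0.72), RNFT2 (-1.03, corrected -0.90), C16orf74 (-1.01, corrected -0.65, not called), IFI27 and ATP5ME, a subunit of ATP synthase (-0.99, corrected -0.63, not called). About 61.3% of the exonic sequence of ATP5ME and 31.5% of that of C16orf74 overlaps a gene on the other strand.

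IFI27, a mitochondrial protein induced by interferon, stood at 44 and 37.4 CPM in HCT-8/FU, 80.8 and 84.8 CPM in CM of HCT-8 and 40.3 and 42.5 CPM in HCT-8. HCT-8/FU and HCT-8 overlapped, and CM of HCT-8 was the high group, so the value was -1.0 against CM of HCT-8 (corrected -0.74) and -0.01 against HCT-8. Of 33 interferon-stimulated genes tested, 7 were higher and 5 lower against CM of HCT-8, beside 13.3% and 6.94% of all genes, and 2 and 4 with the correction, beside 4.72% and 4.37%. CM of HCT-8 was higher than HCT-8 in 7, beside 3.86%, and lower in none. IFI6, a companion of IFI27, was lower as well (-0.71, corrected -0.41, not called). OAS1, the sensor that makes oligoadenylates from double-stranded RNA, changed sign between controls, at 11.2 and 8.86 CPM in HCT-8/FU, 17.5 and 17.5 CPM in CM of HCT-8 and 5.92 and 5.88 CPM in HCT-8, with 0.82 against HCT-8 and -0.75 against CM of HCT-8 (corrected -1.31). It was 1 of 4 genes of all those tested that were called higher against HCT-8 and lower against CM of HCT-8. PARP14, an ADP-ribosyltransferase (1.28, corrected 0.72), and DDX60, a helicase of RNA sensing (2.57, corrected 1.58), were higher against both controls, and IRF7 (-1.0, corrected -0.59) and the exonuclease ISG20 (-0.86, corrected -0.73) lower against both.

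The genes higher in HCT-8/FU than in CM of HCT-8 had a median exonic GC content of 39.4% and a median exonic length of 6951 bases, against 49.0% and 3910 bases for all genes tested and 58.2% and 3141 bases for the lower genes. Among those higher against both controls REL, the NF-kappaB subunit c-Rel (chr2:60881491-60931612, GRCh38), came first and stood at 12.3 and 10.5 CPM in HCT-8/FU, 1.61 and 1.58 CPM in CM of HCT-8 and 4.34 and 4.14 CPM in HCT-8. HCT-8/FU was the high group and CM of HCT-8 the low one, and the log2 fold change was 2.86 (SE 0.233, edgeR adjusted p = 2.1e-07, corrected 1.83) against CM of HCT-8 and 1.46 against HCT-8. About 33.3% of its exonic sequence overlaps another gene on the same strand.

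RICTOR, the defining subunit of mTORC2 (2.43, corrected 1.29), and the tyrosine kinase FER (2.40, corrected 1.45) were higher against both controls as well. So were VPS13C, a lipid transfer protein between ER and endosomes (2.42, corrected 1.21), NBEAL1 (2.65, corrected 1.47) and ANKRD26 (2.6, corrected 1.65). The zinc finger gene ZNF81 (2.58, corrected 1.82) and FSIP2 (2.49, corrected 1.19) were too. These corrected values are against CM of HCT-8. Against HCT-8 the corrected values of RICTOR (0.35), NBEAL1 (0.40) and FSIP2 (0.18) were not called. DDX60 differed more between replicates, at 11.4 and 5.85 CPM in HCT-8/FU. By the corrected log2 fold change, the leading genes included MKI67 (1.85), REL, ZNF81 and HIVEP1, a zinc finger transcription factor (1.70).

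By the uncorrected value, MUC5AC and MUC5B were the lowest of the protein-coding genes lower against both controls with a mean of at least 5 CPM. MUC5AC, a gel-forming mucin (chr11:1157953-1201138, GRCh38), stood at 17.1 and 22.4 CPM in HCT-8/FU, 57.7 and 71.0 CPM in CM of HCT-8 and 35.0 and 36.4 CPM in HCT-8. HCT-8/FU was below both parental groups, and CM of HCT-8 was above HCT-8. The log2 fold change was -1.79 (SE 0.134, edgeR adjusted p = 9.54e-08, corrected -1.61). Its neighbour MUC5B, at 122 and 159 CPM in HCT-8/FU against 395 and 354 CPM in CM of HCT-8 and 266 and 284 CPM in HCT-8, fell by 1.43 on the log2 scale (corrected -1.23). MUC2, the mucin of goblet cells, was at 2.13 and 1.00 CPM against 6.67 and 4.82 CPM (-1.61, corrected -1.41), and AGR2, the ER protein that folds mucins, had a value of -0.59 (corrected -1.19).

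The other leading falls were NXPH4 (-1.38, corrected -0.96), LENG1 (-1.26), DERL3, a channel component of ER-associated degradation (-1.25), S100P, a calcium-binding protein (-1.24, corrected -1.06), NPIPA5 (-1.22) and PRAF2 (-1.20). LENG1 and DERL3 overlap genes on the other strand over 37.7% and 77.0% of their exonic sequence, PRAF2 another gene on its own strand over 45.5%, and NPIPA5 belongs to a family of near-identical copies, so these 4 values are uncertain. PRAF2 was not called with the correction. By the corrected value the lowest were MMP13, a collagenase (-1.68), MUC5AC, the chemerin receptor CMKLR2 (-1.48), EIF1B (-1.42) and LURAP1L (-1.38). Uncorrected values were -1.04 for MMP13, -1.03 for CMKLR2, -0.59 for EIF1B and -0.92 for LURAP1L. That of EIF1B was close to the fold threshold, and ran from -0.85 to -0.38 in fits that left out a library. CMKLR2 stood at 6.31 and 4.35 CPM in HCT-8/FU, 10.4 and 12.7 CPM in CM of HCT-8 and 37.9 and 43.0 CPM in HCT-8, with -2.82 against HCT-8 and -1.79 between the controls.

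UHMK1, a kinase of splicing factors named in the title of the series (chr1:162497251-162529631, GRCh38), stood at 285 and 286 CPM in HCT-8/FU, 111 and 122 CPM in CM of HCT-8 and 119 and 135 CPM in HCT-8. HCT-8/FU was above both parental groups, which overlapped. The log2 fold change against CM of HCT-8 was 1.28 (SE 0.0809, edgeR adjusted p = 2.37e-08). With the correction it was 0.33 (edgeR adjusted p = 0.0452) and fell short of the fold threshold. Against HCT-8 the corrected value was 0.51 (edgeR adjusted p = 0.00242), also short of it. With HCT-8 as control, the study reported higher UHMK1 in HCT-8/FU by RT-qPCR and Western blotting. The exonic GC content of UHMK1 is 37.4%.

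The list of 11 splicing kinases also took in SMG1 and PRKDC, kinases of other processes. Of the 11, 5 were higher against both controls and none lower, beside 9.29% and 3.52% of all genes. With the correction 1 was higher against CM of HCT-8, beside 4.72% of all genes. That was SMG1, the kinase of nonsense-mediated decay, at 387 and 381 CPM in HCT-8/FU, 132.5 and 111.6 CPM in CM of HCT-8 and 230 and 221 CPM in HCT-8 (1.66, corrected 0.94). No other member of the list was called against CM of HCT-8 with the correction. PRKDC, the DNA-dependent protein kinase (1.13, corrected 0.55), and PRPF4B (1.48, corrected 0.50) were called only without it. Among 36 genes of Cajal bodies and snRNP assembly, 8 were higher and 3 lower against CM of HCT-8, beside 13.3% and 6.94%. With the correction 3 were called in each direction, beside 4.72% and 4.37% of all genes. NPAT, which drives histone gene transcription from bodies next to Cajal bodies, stood at 38.4 and 35.6 CPM in HCT-8/FU, 9.44 and 7.87 CPM in CM of HCT-8 and 12.4 and 13.4 CPM in HCT-8 (2.14, corrected 1.27). ICE1 (1.54, corrected 1.13) and ICE2 (1.5, corrected 0.41), subunits of the complex that transcribes snRNA genes, and USPL1, a SUMO protease of Cajal bodies (0.95, corrected 0.67), were higher, and the Sm protein SNRPD2 lower (-0.79, corrected -0.54, not called). COIL, coilin, the scaffold of Cajal bodies and the other protein in the title, stood at 24.1 and 19.6 CPM in HCT-8/FU, against 20.3 and 22.3 CPM in CM of HCT-8, with overlapping groups and a log2 fold change of 0.06 (edgeR adjusted p = 0.796).

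Of 77 cytosolic ribosomal protein genes, 20 were lower and none higher against CM of HCT-8, beside 6.94% lower among all genes. Against both controls 3 were lower, a share near the 3.52% of all genes. The count was 7 when CM of HCT-8 replicate 1 was left out and 38 when its replicate 2 was, so it depends on which library was the control. The list median was -0.47, -0.41 with DESeq2's size factors, -0.37 with CM of HCT-8 replicate 2 as scaling reference and -0.33 with the correction, where 19 were lower, 10 of them also called without it. RPS27 stood at 198 and 217 CPM in HCT-8/FU, 496 and 357 CPM in CM of HCT-8 and 341 and 295 CPM in HCT-8 (-1.04, corrected -0.94). RPLP1 (-0.84, corrected -0.71) and RPL18 (-0.65, corrected -0.30, not called) were the other members lower against both controls. Of 13 mitochondrially encoded genes, 4 were lower, beside 6.94% of all genes, and 7 with the correction, beside 4.37%, with medians of -0.52 and -0.70. The uncorrected count was 3 when CM of HCT-8 replicate 1 was left out and 10 when its replicate 2 was. MT-ND5 (-0.83) and MT-ND6 (-1.01), subunits of complex I, were lower against both controls.

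**Figure D4:**
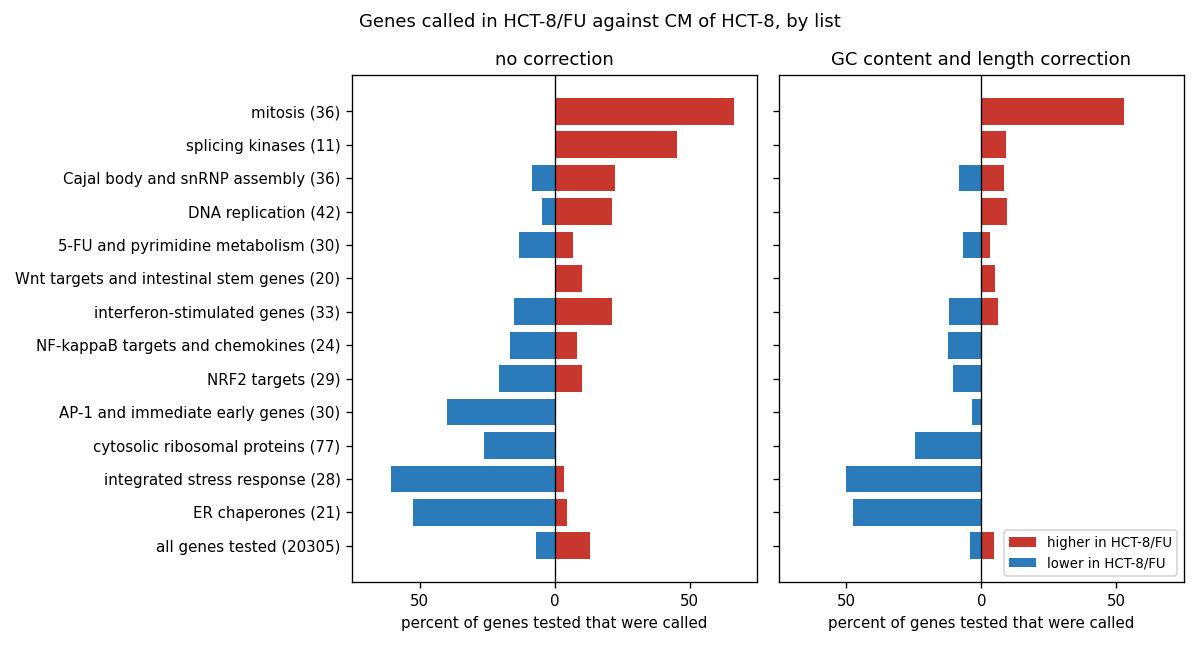
Percent of tested genes called higher (red, to the right) or lower (blue, to the left) in HCT-8/FU relative to CM of HCT-8 for 13 lists and for all genes tested, with the number tested in brackets, without correction on the left and with correction on the right. Without and with the correction, 24 and 19 mitotic genes were higher and 17 and 14 integrated stress response genes and 11 and 10 ER chaperones were lower, whereas AP-1 and immediate early genes went from 12 lower to 1.

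Immediate early and AP-1 genes were lower in 12 of 30 and higher in none, beside 6.94% lower among all genes, but in 1 of 30 with the correction, a share near the 4.37% of all genes. FOSB was that gene, at 1.89 and 1.00 CPM in HCT-8/FU, against 5.41 and 3.69 CPM in CM of HCT-8 (-1.39, corrected -1.10). DUSP5, a phosphatase of ERK (-0.81, corrected -0.50), KLF2 (-0.87, corrected -0.43) and FOSL1 (-0.92, corrected -0.53) lost their calls. Of 29 NRF2 targets, 3 were higher, SLC7A11 among them, and 6 lower, beside 13.3% and 6.94% of all genes. With the correction none was higher and 3 were lower, beside 4.37%. The iron store FTH1, with 63.2% of its exonic sequence opposite another gene, was lower (-0.84, corrected -0.68), as was HMOX1, heme oxygenase, at 14.3 and 11.4 CPM in HCT-8/FU, 28.8 and 25.5 CPM in CM of HCT-8 and 53.6 and 54.0 CPM in HCT-8 (-1.0, corrected -0.64).

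Among 24 NF-kappaB targets and chemokines, 2 were higher and 4 lower, beside 13.3% and 6.94% of all genes. With the correction none was higher and 3 were lower, beside 4.72% and 4.37%. CXCL5, a neutrophil chemokine, stood at 9.67 and 30.9 CPM in HCT-8/FU, 7.71 and 4.78 CPM in CM of HCT-8 and 1.98 and 1.36 CPM in HCT-8. The HCT-8/FU replicates lay far apart, replicate 1 was near CM of HCT-8, and the value was 1.65 (SE 0.412, edgeR adjusted p = 0.00504) with a corrected value of 0.87 that was not called. BIRC3, an inhibitor of apoptosis (1.99, corrected 1.00, not called), was the other higher gene, and IL32 (-1.27, corrected -0.87) and NFKB2 (-0.73, corrected -0.33) were lower. Of 26 p53 targets, 5 were higher, ZMAT3 (1.13) and MDM2 (0.75) among them, and 4 lower, beside 13.3% and 6.94% of all genes, and with the correction none was called in either direction.

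None of the lists of drug efflux transporters, glycolysis and hypoxia, and cholesterol and fatty acid synthesis had a larger share of higher or lower genes than the 13.3% and 6.94% of all genes. Of 21 drug efflux transporters, 2 were higher and none lower. ABCB10, of the mitochondrial inner membrane, stood at 59.5 and 59.8 CPM in HCT-8/FU, 36.0 and 32.3 CPM in CM of HCT-8 and 26.5 and 22.2 CPM in HCT-8 (0.82, corrected 0.70), and ABCA5 had 1.09 but a corrected value of -0.12. Among 33 glycolysis and hypoxia genes, HIF1A, the oxygen-regulated transcription factor, was the 1 higher (1.54, corrected 0.79) and 1 was lower. Cholesterol and fatty acid synthesis had 3 higher and 1 lower of 33, with the sensor INSIG1 (0.84, corrected 0.74) and the sterol carrier STARD4 (1.5, corrected 0.43) among the higher. Heat shock chaperones had 6 higher and 2 lower of 19, beside 13.3% and 6.94%. With the correction 1 was called in each direction, shares near the 4.72% and 4.37% of all genes. HSP90AA1 (0.90, corrected 0.84) was the 1 still higher with the correction. The zinc exporter SLC30A1 (1.06, corrected 0.48) was called without the correction.

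Among junction and EMT genes 5 of 25 were higher and 3 lower, beside 13.3% and 6.94% of all genes. With the correction 2 were called in each direction, beside 4.72% and 4.37%. ITGAV, the integrin alpha-V chain, stood at 227 and 197 CPM in HCT-8/FU, 62.6 and 54.0 CPM in CM of HCT-8 and 75.3 and 72.9 CPM in HCT-8 (1.88, corrected 0.75), and ZEB1, a repressor of epithelial genes, at 17.3 and 12 CPM against 4.14 and 5.27 CPM (1.65, corrected 1.03). MACC1, a regulator of MET transcription, stood at 11.3 and 8.36 CPM in HCT-8/FU, 2.42 and 3.09 CPM in CM of HCT-8 and 1.05 and 1.77 CPM in HCT-8 (1.83, corrected 0.80). The EGFR ligands AREG (-0.68, corrected -1.02) and HBEGF (-0.66, corrected -0.49, not called) were lower. EGFR itself was 0.40 against CM of HCT-8, under the fold threshold, and -0.28 against HCT-8. Of 26 colon differentiation genes 1 was higher, KRT20 (0.75), and 5 lower, beside 13.3% and 6.94%. With the correction none was higher and 4 were lower, beside 4.72% and 4.37%. The brush border cadherin CDHR5 (-0.94, corrected -0.48) was among those lower. TRPV6, a calcium channel, and KLHDC7B were far lower than in HCT-8 (-2.84 and -3.24). Against CM of HCT-8 TRPV6 had -0.73 (edgeR adjusted p = 0.0827), and KLHDC7B had -1.12 and was called, with a corrected value of -0.74 that was not.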

How the data were processed

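Messenger RNA captured on beads from 8 libraries was sequenced, and the authors aligned reads with HISAT2, handled them with SAMtools 1.18 and counted them per gene with HTSeq 0.11.2 on GRCh38. Their strand setting is unknown here. The deposited files hold raw counts per gene, and between 59.2% and 70.3% of records were not assigned to a single gene and stayed out. Tables of the authors' own comparisons by DESeq2 1.30.0, with fold changes and p-values, were not used.

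Samples were grouped by their titles. All 8 libraries were fitted as 4 group means with edgeR 4.0.16 in R 4.3.3 (TMM, filterByExpr, quasi-likelihood test). Of 64253 genes 20305 were tested, and a gene was called at a Benjamini-Hochberg adjusted p up to 0.05 and a log2 fold change of 0.58 or more in size. GC content and exonic length (19857 genes) came from GENCODE on GRCh38. The correction fitted, for each library, natural splines with 5 degrees of freedom on GC content and log2 length, and entered them as offsets. Promoter windows came from RefSeq. Alternatives included DESeq2 1.42.0, other scalings and filters, a replicate block and leaving out each library. The method was tested on simulated counts with 200 changed genes. Without an added GC trend, edgeR made 10 false calls, and 8 with the correction. With a trend on GC content and length taken from these libraries, edgeR made 3148 false calls and DESeq2 2877. The corrected edgeR fit made 6. That trend was made with the same spline fit as the correction, which favours the corrected result. Depth ranged from 5804124 to 34881349 counts, and precision for low genes is set by the shallowest libraries. Overlaps with other genes are shares of exonic sequence.

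The comparison, lists and members were chosen with earlier results of these data known. Genes named were the 10 highest and 10 lowest protein-coding genes called against both controls with a mean of at least 5 CPM, the 5 highest and 5 lowest called only against CM of HCT-8 where the controls differed, the 5 highest and 5 lowest by the corrected value, UHMK1, and examples of each list, some of them chosen after their values were seen. A few genes that these choices cover are not reported here.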

Additional observations from a re-analysis of the deposited data

Results flagged for a closer look

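For 63 of the 138 genes named, the log2 fold change of HCT-8/FU relative to CM of HCT-8 differed from that against HCT-8, by edgeR at the adjusted p and fold thresholds above. That difference equals the log2 fold change of CM of HCT-8 minus HCT-8, which is the value given for each gene here. Many of these genes were named for differing between controls, so their number is a description. The values are without the correction, and this contrast also followed GC content (Spearman correlation 0.301). With the correction 1050 genes were called between the controls, in place of 1655. ZNF81 (-0.54), VPS13C (-0.35), UBALD2 (0.59), RNFT2 (0.75) and ATP5ME (0.69) were among the named genes then no longer called.

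Among DNA replication genes, values were CLSPN 0.74, FAM111B 0.91, PCNA 0.92, MCM2 0.84, MCM3 1.00, MCM6 0.96 and RFC2 0.72. CM of HCT-8 was above HCT-8 in each. Genes of 5-FU and pyrimidine metabolism were also higher in CM of HCT-8, with SLC29A2 0.74, TYMS 0.93, TK1 1.07, RRM2 1.3 and DUT 0.76. Wnt, stem and differentiation genes gave LGR5 0.88, AXIN2 0.86, ASCL2 1.23 and KRT20 0.69, and the mitotic kinase AURKB 1.08. Genes of the stress responses were lower in CM of HCT-8, with DDIT3 -1.05, SLC7A11 -1.23, TRIB3 -1.05, DDIT4 -0.92, GDF15 -0.90, PPP1R15A -1.06, ATF3 -1.96, ASNS -0.76, HSPA5 -1.12 and HMOX1 -1.0. Interferon-stimulated genes and the chemokine CXCL5 were higher, with IFI27 0.99, IFI6 0.83, OAS1 1.57 and CXCL5 1.96. Leading genes higher in HCT-8/FU were lower in CM of HCT-8 than in HCT-8, with REL -1.40, NBEAL1 -1.49, ANKRD26 -1.33, ZNF81 -0.79, FSIP2 -1.48, RICTOR -1.33, VPS13C -0.78, FER -0.96 and HIVEP1 -0.85. Among genes called only against CM of HCT-8, the values were SWT1 -1.18, FAM135A -1.16, ARHGAP29 -1.49, RDX -1.0, UBALD2 0.81, RNFT2 0.80, C16orf74 1.37 and ATP5ME 0.83. Among leading lower genes they were MUC5AC 0.86, MMP13 -0.83, CMKLR2 -1.79, LURAP1L -1.21, TRPV6 -2.12 and KLHDC7B -2.12. The remaining genes gave SMG1 -0.89, NPAT -0.63, DUSP5 -0.59, FOSB -0.83, ZEB1 -0.76, AREG -1.11, HBEGF -0.67, HIF1A -0.59 and STARD4 -0.82.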

How the results depend on the processing

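Against CM of HCT-8, 4103 genes were called, 2694 higher and 1409 lower. DESeq2 on 4 groups lowered the lower count to 898, DESeq2 and edgeR on the compared groups alone to 619 and 602, and CM of HCT-8 replicate 2 as TMM reference to 776. Lower genes called against both controls, 715, became 400 and 376 in the fits on the compared groups alone and 392 with that reference. Without the fold threshold 7793 genes passed, 4232 of them lower, and 5216 against both controls, 2589 of them lower. CM of HCT-8 against HCT-8, with 1655 calls (783 higher, 872 lower), gave 1090 and 490 higher by DESeq2 on the compared groups alone and 3949 without the fold threshold (1836 higher, 2113 lower). The cause of these differences was not tested, except that dropping a threshold adds genes.

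The correction for GC content and length gave 1805 calls (938 higher, 867 lower), 1025 against both controls (505 higher) and 1050 between the controls (519 higher, 531 lower). Corrected fits that also left out a library were chosen after seeing the data. Without HCT-8/FU replicate 1 they gave 1273 calls (779 higher, 494 lower), 796 against both controls (445 and 351) and 1055 between the controls (531 lower). Without HCT-8/FU replicate 2 they gave 1915 (797 and 1118), 1138 (416 and 722) and 1056 (525 lower). Without CM of HCT-8 replicate 1 they gave 1728 (1033 and 695), 999 (543 and 456) and 1032 (389 higher). Without CM of HCT-8 replicate 2 they gave 1881 (656 and 1225), 972 (390 and 582) and 1109 (400 lower). Uncorrected, leaving out each library gave 2259 to 2819 higher and 1093 to 1745 lower calls, and 469 (without HCT-8 replicate 2) to 933 higher between the controls. The correction turned the sign of ABCA5 (-0.1155) and MDM2 (-0.0077), with ABCA5 at -0.3546 and -0.2829 and MDM2 at -0.0573 and -0.0035 in fits that left out a library, and in such fits DNAJC3 (-0.0743 and -0.091), CDT1 (0.0898), FPGS (0.0062) and CXCL5 (-0.22, without HCT-8/FU replicate 2) turned too.

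No label ties equal replicate numbers to a shared batch. Over 20305 genes, the deviations of the HCT-8/FU libraries correlated with those of CM of HCT-8 at -0.121 and with those of HCT-8 at -0.0864, and those of both controls with each other at 0.127. With the replicate number as a block, 2619 genes were higher and 1385 lower. With block and correction 1729 were called (897 higher, 832 lower), 986 against both controls (473 higher) and 966 between the controls (477 higher, 489 lower), with ABCA5 at -0.0491 and MDM2 at -0.008. The crossed pairing gave 2742 higher and 1443 lower. Low genes are limited by the 5804124 counts of HCT-8/FU replicate 2.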
